A study of Homo sapiens with 9 samples.

Results

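The 33 genes described here are direct transcriptional targets of p53, measured by RNA sequencing in HMEC-1 exposed to trimethylamine N-oxide (TMAO), a metabolite that the liver makes from a product of gut bacteria. They were chosen by name as known p53 targets, at a time when the fold changes in these same libraries were already known, so counts and medians over the list describe it and lend no support to any statement about it. All 33 symbols were found among the 29740 genes of the deposited counts table, and all 33 were among the 14740 genes kept by the expression filter of edgeR. HMEC-1 is an immortalised line of human dermal microvascular endothelial cells. It carries the large T antigen of simian virus 40, a protein that binds p53, which limits the line as a model of p53 activity. The 3 groups, with 3 libraries each, were untreated cells (CTRL), cells given 50 µM TMAO for 24H and cells given 50 µM TMAO for 48H, with treatment in low-serum medium. Controls from the 2 time-points were pooled by the study, and the effect of treatment and that of time in culture cannot be told apart. The labels do not say that the libraries of a group came from separate cultures, so p-values measure only the spread between these libraries.

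The transcription factor p53 is held at a low level in resting cells, because the ubiquitin ligase MDM2, itself a p53 target, marks it for degradation. DNA damage, oxidants and other stresses release this brake. The stabilised protein then binds paired half-sites in DNA and turns on genes that halt the cell cycle, repair DNA, promote apoptosis, adjust metabolism and feed back on p53 itself. In the endothelium, p53 has been studied in senescence, in the response to disturbed flow and in limiting new vessel growth.

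The p53 response element consists of 2 copies of a half-site consensus of 10 letters, which reads the same on both strands. The consensus was searched in the RefSeq promoter windows of GRCh38.p14, which run from 250 bases before to 50 bases after each start site. Windows were given for 28 of the 33 members (C12orf5 under its newer name TIGAR), and none was given for FBXO22, GADD45A, PHLDA3, RRM2B or TP53INP1. A full site here is 2 adjoining half-sites, 20 bases in all, that keep the fixed C and G of each half-site and differ from the consensus at no more than 3 positions. Such a site was present in 9 of 39 member windows (23.1%), belonging to 8 members, and in 392 of all 35116 windows (1.12%). An exact half-site was present in 6 of 39 member windows (15.4%) and in 2329 of 35116 (6.63%). The stretches below show the best full site of each of the 8 members, and the single half-site of PLK2, in capitals within their lower-case flanks, 5′ to 3′ on the strand of the gene, because p53 is known to act through sites of this kind.
AEN (chr15:88621301-88621330, plus strand, 2 mismatches): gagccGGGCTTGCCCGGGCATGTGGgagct
DDB2 (chr11:47214964-47214993, plus strand, 1 mismatch): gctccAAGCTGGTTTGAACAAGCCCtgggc
FDXR (chr17:74872991-74873020, minus strand, 3 mismatches): ggcccGGGCAGGAGCGGGCTTGCCCtgcgg
GDF15 (chr19:18386181-18386207, plus strand, 3 mismatches): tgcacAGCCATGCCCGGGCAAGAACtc
MDM2 (chr12:68808918-68808947, plus strand, 2 mismatches): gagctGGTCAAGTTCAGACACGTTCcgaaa
PMAIP1 (chr18:59899806-59899835, plus strand, 3 mismatches): gtcggGAGCGTGTCCGGGCAGGTCGcgctc
RPS27L (chr15:63157522-63157551, minus strand, 3 mismatches): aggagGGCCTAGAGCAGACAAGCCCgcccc
SESN1 (chr6:109009013-109009042, minus strand, 3 mismatches): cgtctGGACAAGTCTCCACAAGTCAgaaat
PLK2 (chr5:58460199-58460228, minus strand, half-site without mismatch): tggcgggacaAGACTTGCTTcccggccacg
A match is a description of these letters and not evidence of binding, and many p53 sites of these genes lie in introns or further upstream, outside the windows. The build of the counts table is not given in the sources used here, so these coordinates belong to the RefSeq windows alone.

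Total counts per library ranged from 25205756 to 36927373. Transcripts of 7 ribosomal RNA genes took 31.5% of the first 24H library and 1.64% to 7.46% of each of the other 8. Endothelial identity was visible in every library: all 10 endothelial markers were detected, with a summed level of 2310 to 2650 CPM (counts per 1000000 of the scaled library) in CTRL, 2360 to 2500 at 24H and 2060 to 2250 at 48H, and 6 of the 10 fell at 48H by the test used below. Of 5 leukocyte markers, 4 or 5 were under 1 CPM in each group, with CD3E at 0 in all libraries. The 7 fibroblast markers summed to 959 to 1120 CPM in CTRL, 967 to 1050 CPM at 24H and 616 to 673 CPM at 48H, mostly collagen transcripts, with DCN, LUM and PDGFRA under 1 CPM. The third 48H library stood apart in 4 of 5 epithelial markers. The 5 summed to 13.5 CPM there against 62.8 to 105 CPM in the other libraries. Exons of 8 members (BBC3, CYFIP2, FBXO22, MDM2, PLK3, POLH, TP53I3 and XPC) overlap another gene of the counts table in GENCODE release 29, and the strand setting of the counting is not given in the sources used here, so reads of the shared stretches cannot be told apart. Exons of CDKN1A, C12orf5, PHLDA3 and SESN1 overlap only genes absent from the counts table, which makes 12 members with an overlap. For C12orf5 and PHLDA3 such a gene lies on the same strand. The part of the marker and ribosomal RNA differences in the results on p53 targets was not tested. In bulk RNA, fewer cells of a type and less RNA per cell cannot be told apart.

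After 24H of TMAO, the p53 targets stood close to control. No member passed the test, which is edgeR's quasi-likelihood test fitted on all 9 libraries with Benjamini-Hochberg adjustment over the 14740 genes and a threshold of adjusted p under 0.05. The lowest adjusted p among the members was 0.336, and DESeq2 passed 0 members as well. BTG2 was the 1 member higher, and GADD45A, GDF15 and PLK2 the 3 lower, where p without adjustment was under 0.05, beside 2.77% of all tested genes higher and 4.47% lower. Among all tested genes, 14 passed at 24H (0.095%). The median log2 fold change over the members was -0.02, beside -0.000421 over all tested genes. In 4 members all 24H libraries lay above all controls, and in 5 members all lay below, against 6.73% and 7.52% of all tested genes.

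After 48H, 14 members were higher than in controls and 0 were lower at an adjusted p under 0.05, beside 5.14% of all tested genes higher and 5.29% lower. The 14 were CDKN1A, ZMAT3, BTG2, PLK2 and GADD45A of the arrest genes, CYFIP2 and AEN of the apoptosis genes, RRM2B of the repair genes, MDM2 and CCNG1 of the feedback genes, and SPATA18, GDF15, FDXR and SESN1 of the metabolic and secreted group. The log2 fold change was above 0 in 32 of 33 members, PLK3 being the exception, and its median was 0.22, beside 0.00396 over all tested genes. Of the 14, 5 members also reached the 1.4-fold threshold of the study (SPATA18, ZMAT3, CDKN1A, CYFIP2 and RRM2B), beside 0.882% of all tested genes. That count was 4 with DESeq2, 3 without the first control, 2 without the second and 3 without the first 48H library. In 20 members every 48H library lay above every control, beside 14.7% of all tested genes. Both time-points were compared with the same controls. The direct comparison of 48H with 24H, which does not use the controls, gave 15 members higher and 0 lower, beside 3.77% of all tested genes higher, and 4 members at or above 1.4-fold (ZMAT3, GDF15, CYFIP2 and CDKN1A), beside 0.862%. The count of 15 was 8 without the third 24H library, 9 without the second 48H library and 10 with the replicate block.

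**Figure D1:**
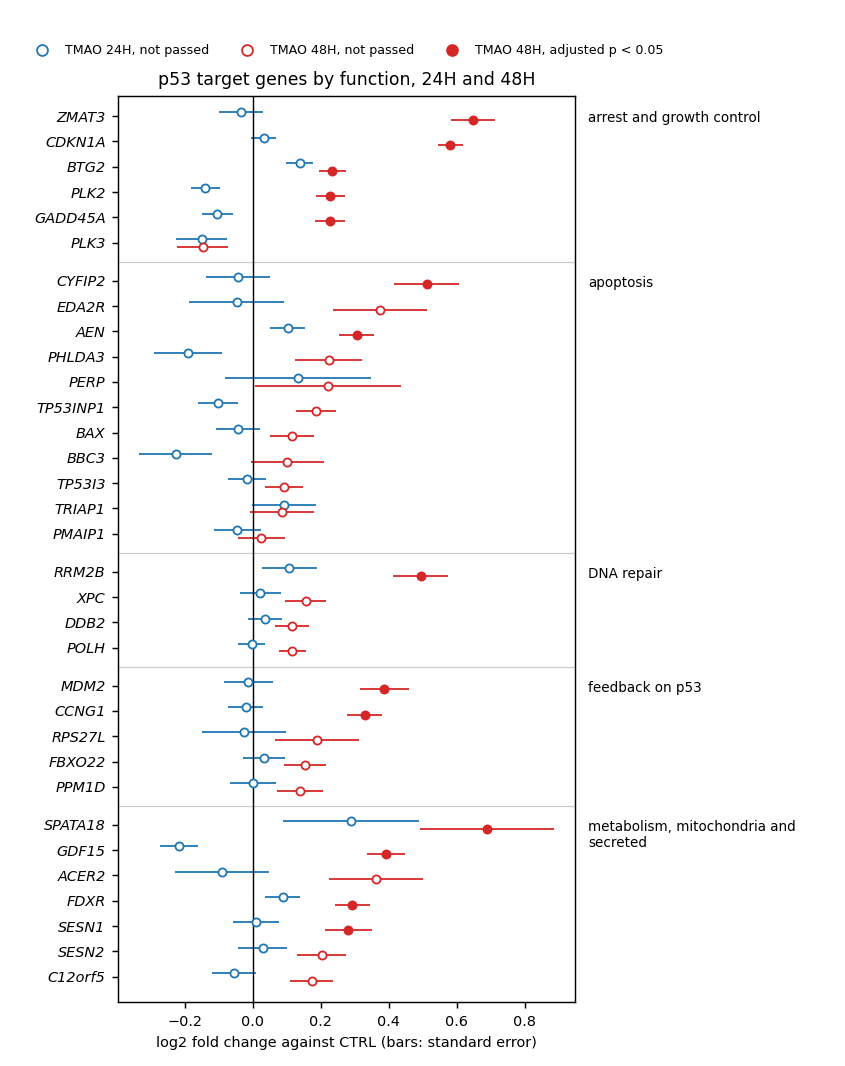
Log2 fold change against CTRL (x axis) of each of the 33 p53 targets, grouped by function, at 24H (blue) and 48H (red); bars are standard errors and filled circles have an adjusted p under 0.05. The 14 filled circles are all at 48H and above 0, and the 24H circles lie on both sides of 0.

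In the arrest and growth control group, 5 of 6 members were higher at 48H, beside 5.14% of all tested genes. CDKN1A encodes p21, the inhibitor of cyclin-dependent kinases through which p53 halts the cell cycle. It stood at 207, 214 and 218 CPM in the 3 controls, at 215, 220 and 218 CPM at 24H, and at 317, 322 and 317 CPM at 48H. The 24H libraries overlapped the controls, while the 48H libraries formed a tight group above all others. An exon of CDKN1A also overlaps DINOL, an antisense RNA that is no gene of the counts table, so its reads cannot be told apart from those of CDKN1A. The rise at 48H was 1.5-fold (log2 0.58, standard error 0.036, adjusted p = 2.51e-06), and CDKN1A was 1.46-fold higher at 48H than at 24H (log2 0.55, adjusted p = 2.23e-06).

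ZMAT3, a zinc finger protein that binds RNA and restrains growth, was higher at 48H as well. Its controls read 23.4, 25.7 and 27.5 CPM, its 24H libraries 26.1, 24.1 and 24.5 CPM, and its 48H libraries 39.2, 41.6 and 39.2 CPM. Only the 48H libraries left the range of the controls. The rise was 1.57-fold at 48H (log2 0.65, standard error 0.064, adjusted p = 7.12e-05) and 1.61-fold from 24H to 48H (log2 0.68, adjusted p = 2.48e-05).

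BTG2, an antiproliferative gene that works in mRNA turnover, was the member whose 24H libraries already left the controls upwards at an unadjusted p under 0.05. The controls were at 59.0, 59.5 and 59.2 CPM, the 24H libraries at 63.1, 66.5 and 65.9 CPM and the 48H libraries at 68.9, 70.8 and 69.2 CPM. The 3 groups did not overlap. The rise was 1.18-fold at 48H (log2 0.23, standard error 0.040, adjusted p = 0.00305), but the 24H value (log2 0.14, adjusted p = 0.474) and the step from 24H to 48H (log2 0.10, adjusted p = 0.176) did not pass.

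GADD45A, which binds PCNA and p21 in growth arrest and repair, and PLK2, a polo-like kinase that acts on centrioles, both lay below the controls at 24H and above them at 48H. GADD45A was at 45.2, 46.0 and 46.6 CPM in controls, 42.4, 42.5 and 43.3 CPM at 24H, and 55.5, 54.3 and 51.4 CPM at 48H. For PLK2, whose half-site is printed above, the controls were at 189, 192 and 189 CPM, the 24H libraries at 177, 168 and 172 CPM and the 48H libraries at 224, 210 and 233 CPM. In neither gene did any pair of groups overlap. The 24H values did not pass (GADD45A log2 -0.10, adjusted p = 0.670, PLK2 log2 -0.14, adjusted p = 0.493). At 48H both were 1.17-fold above control (GADD45A log2 0.23, standard error 0.045, adjusted p = 0.00685, PLK2 log2 0.23, standard error 0.043, adjusted p = 0.00505). From 24H to 48H the rise was 1.26-fold for GADD45A (log2 0.33, adjusted p = 0.000440) and 1.29-fold for PLK2 (log2 0.37, adjusted p = 0.000138). The 48H call of PLK2 was kept in 8 of the 10 alternatives that hold all libraries. It was lost, for one, with offsets for GC content and transcript length (log2 0.16, adjusted p = 0.0665).

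PLK3, a related stress-responsive kinase, was the 1 member below control at 48H. It read 21.2, 21.3 and 23.0 CPM in controls, 17.5, 20.7 and 20.8 CPM at 24H and 18.9, 20.5 and 19.6 CPM at 48H. Both treated groups lay under all controls, but the log2 fold changes of -0.15 at either time did not pass (adjusted p = 0.722 at 24H and 0.239 at 48H).

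**Figure D2:**
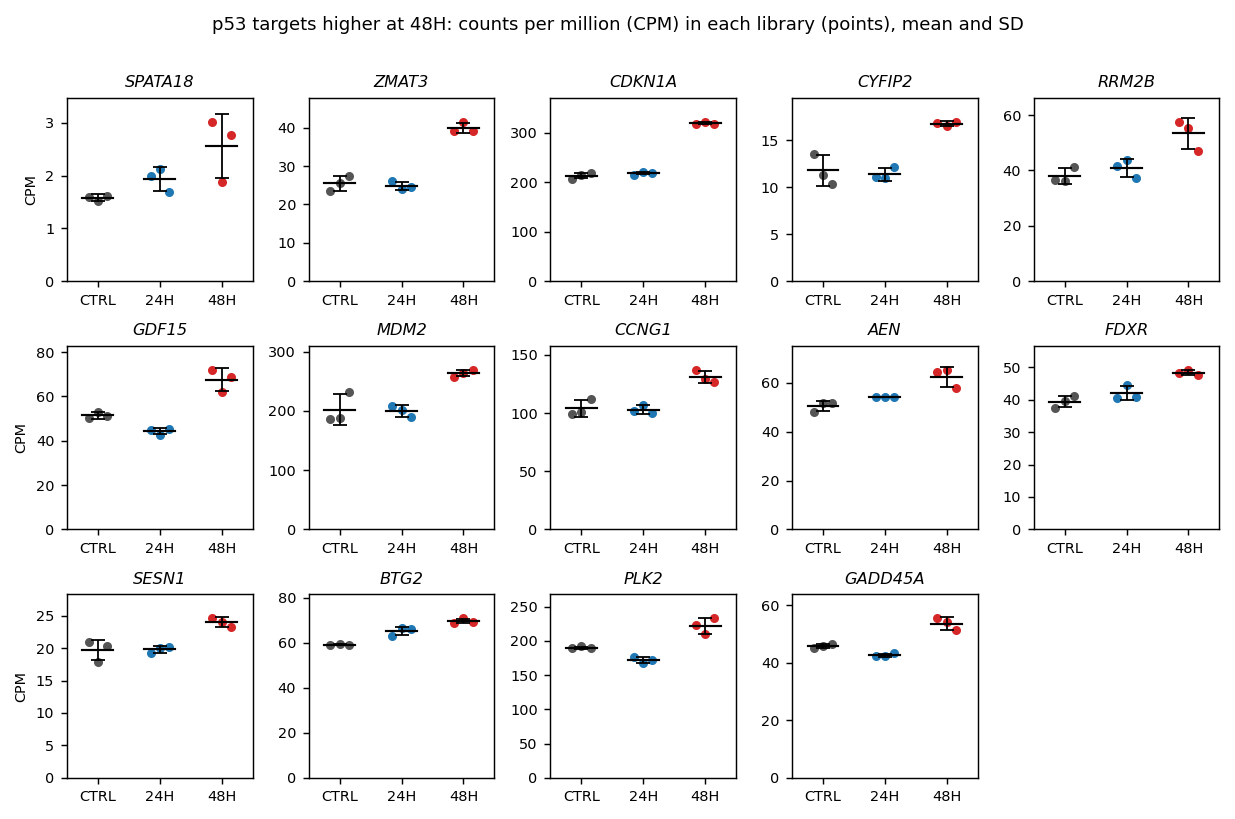
CPM (y axis, from 0, a separate scale for each gene) in every library of the 14 p53 targets that passed at 48H; points are libraries, the wide bar is the mean of 3 and the error bars are the SD. In each panel the 48H points lie above all 3 control points, closely grouped for CDKN1A and widely spread for SPATA18.

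The apoptosis group was the largest, with 11 members. At 48H, 2 of them passed as higher, beside 5.14% of all tested genes, and all 11 had a log2 fold change above 0. CYFIP2, a partner of the WAVE actin-remodelling complex that p53 induces, was at 13.6, 11.3 and 10.4 CPM in controls, 11.1, 11.0 and 12.2 CPM at 24H and 16.9, 16.5 and 17.0 CPM at 48H. The 48H libraries were close together and above every other library. The rise was 1.43-fold (log2 0.51, standard error 0.095, adjusted p = 0.00474), and 1.47-fold from 24H to 48H (log2 0.55, adjusted p = 0.00271). An exon of CYFIP2 overlaps ADAM19 on the opposite strand. ADAM19 itself fell at 48H (log2 -0.43, adjusted p = 0.000205), and reads of the shared stretch cannot be assigned to either gene.

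AEN, a nuclease that degrades DNA and RNA in dying cells, carries a full site in the sequence shown above. The controls were at 48.2, 51.7 and 52.0 CPM, the 24H libraries at 54.4, 54.2 and 54.4 CPM and the 48H libraries at 64.3, 65.3 and 58.0 CPM. All treated libraries exceeded all controls, and the 48H libraries exceeded the 24H libraries. AEN was 1.24-fold higher at 48H (log2 0.31, standard error 0.052, adjusted p = 0.00294), while the 24H value did not pass (log2 0.10, adjusted p = 0.728). The step from 24H to 48H (log2 0.20, adjusted p = 0.0307) lost its call in 5 of the 6 fits without 1 of the libraries compared.

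The apoptosis members BAX, BBC3 and PMAIP1 did not pass at 48H. BAX, which opens the mitochondrial outer membrane, ranged from 66.8 to 77.5 CPM in controls and from 74.3 to 86.2 CPM at 48H (log2 0.12, adjusted p = 0.285). BBC3, which encodes PUMA, ranged from 13.4 to 16.0 CPM in controls, from 11.3 to 13.3 CPM at 24H and from 13.0 to 17.0 CPM at 48H (log2 0.10 at 48H, adjusted p = 0.607). PMAIP1, which encodes NOXA and has a full site in its window, ranged from 39.8 to 46.9 CPM in controls and from 40.4 to 47.1 CPM at 48H (log2 0.02, adjusted p = 0.866). For all 3 the 48H libraries overlapped the controls. A missed threshold does not show equal levels: the standard errors of these log2 values were 0.065, 0.11 and 0.070.

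PHLDA3 and TP53INP1 passed only between the 2 treated groups. PHLDA3, a repressor of the survival kinase AKT, was at 19.9, 22.1 and 25.9 CPM in controls, 18.9, 20.5 and 20.1 CPM at 24H and 29, 27.3 and 22.9 CPM at 48H. The controls overlapped both treated groups, and the treated groups did not overlap each other. PHLDA3 was 1.33-fold higher at 48H than at 24H (log2 0.41, standard error 0.099, adjusted p = 0.0219), a call that was lost in 5 of 6 fits without 1 of these libraries. TP53INP1, a stress protein of autophagy and cell death, was at 49.9, 50.4 and 58.9 CPM in controls, 50.2, 49.7 and 48.4 CPM at 24H and 60, 59.1 and 62.0 CPM at 48H. Here the 48H libraries lay above all controls, the nearest by a narrow margin, since the third control stood apart from the other controls. The rise from 24H was 1.22-fold (log2 0.29, standard error 0.060, adjusted p = 0.00950), lost without the third 24H library (adjusted p = 0.0507). Against CTRL the log2 fold change was 0.19 (adjusted p = 0.0642), and without the third control it was 0.26 (adjusted p = 0.00501). That was the only pass against CTRL among the 6 fits without 1 library, whose adjusted p-values ran up to 0.212.

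PERP, a membrane protein of desmosomes in epithelia and a p53 effector in apoptosis, was the member that varied most within a group. It was at 9.28, 9.36 and 9.94 CPM in controls, 10.2, 10.4 and 10.7 CPM at 24H, and 15, 12.1 and 6.20 CPM at 48H. The third 48H library lay below all others and the remaining 48H libraries above them. That library was also the one with low epithelial markers: KRT5 was at 4.12 CPM there against 25.1 to 53.6 CPM in the other 8, KRT14 at 2.23 against 18.2 to 35.1 CPM, and EPCAM at 1.25 against 6.64 to 9.53 CPM. CDH1 was at 1.13 CPM in it against 2.78 to 5.13 CPM elsewhere, and KRT19, at 4.80 CPM, was within the range of the others. Their part in the PERP value was not tested. Over all 9 libraries PERP did not pass at 48H (log2 0.22, standard error 0.21, adjusted p = 0.563). Without the third 48H library it was higher at 48H than in CTRL (log2 0.51, adjusted p = 0.00762) and than at 24H (log2 0.38, adjusted p = 0.0405). In each comparison only 1 of the 6 fits without 1 library passed, the fit that leaves out the lowest PERP value.

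Among the remaining apoptosis members, EDA2R, a death receptor of the TNF receptor family, was at 2.24 to 2.72 CPM in controls and 3.14 to 3.42 CPM at 48H. The groups did not overlap, yet the log2 fold change of 0.37 (standard error 0.14) did not pass (adjusted p = 0.105). TP53I3, a quinone oxidoreductase linked to oxidant production, had a log2 fold change of 0.09 (adjusted p = 0.332), and TRIAP1, a mitochondrial survival factor, one of 0.09 (adjusted p = 0.619). In both, the 48H libraries overlapped the controls.

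Beside 5.14% of all tested genes, 1 of the 4 DNA repair members was higher at 48H, namely RRM2B. It encodes the p53-inducible subunit of ribonucleotide reductase, which supplies deoxynucleotides for repair and for mitochondrial DNA. RRM2B was at 36.5, 36.1 and 41.3 CPM in controls, 41.5, 43.8 and 37.3 CPM at 24H and 57.6, 55.5 and 47.1 CPM at 48H. The 24H libraries overlapped the controls, and the third 48H library was the lowest of its group but above all 24H and control libraries. The rise was 1.41-fold (log2 0.49, standard error 0.081, adjusted p = 0.00239), and 1.31-fold from 24H (log2 0.39, adjusted p = 0.0109). The latter call was lost without the third 24H library (adjusted p = 0.0601) or without the second 48H library (adjusted p = 0.0581).

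The other 3 repair members did not pass. DDB2, which recognises ultraviolet lesions and whose site with 1 mismatch is printed above, ranged from 40.7 to 45.2 CPM in controls and from 45.4 to 47.9 CPM at 48H. XPC, a second damage sensor of nucleotide excision repair, ranged from 75.6 to 87.7 CPM in controls and from 86.9 to 99.4 CPM at 48H. POLH, a polymerase that copies past lesions, ranged from 68.6 to 71.6 CPM in controls and from 73.6 to 77.8 CPM at 48H. The groups overlapped for XPC and not for DDB2 or POLH. Their log2 fold changes at 48H were 0.12, 0.16 and 0.12 in that order, with adjusted p-values of 0.161, 0.121 and 0.0810.

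Of the 5 feedback members, MDM2 and CCNG1 were higher at 48H, beside 5.14% of all tested genes. MDM2, which marks p53 for degradation and closes the main feedback loop, was at 186, 188 and 232 CPM in controls, 209, 202 and 189 CPM at 24H and 258, 264 and 269 CPM at 48H. The third control stood above the other controls and above all 24H libraries, but below every 48H library. The rise was 1.31-fold at 48H (log2 0.39, standard error 0.072, adjusted p = 0.00468) and 1.32-fold from 24H (log2 0.40, adjusted p = 0.00367). CCNG1, the cyclin G1 that works with MDM2 and a phosphatase, was at 99.6, 101 and 112 CPM in controls, 102, 107 and 100 CPM at 24H and 137, 129 and 127 CPM at 48H. Again the 48H libraries stood clear of the others. CCNG1 rose 1.26-fold (log2 0.33, standard error 0.052, adjusted p = 0.00176) and 1.27-fold from 24H (log2 0.35, adjusted p = 0.000923).

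The other feedback members had values above control that did not pass. PPM1D, the WIP1 phosphatase that switches off p53 and its kinases, had a log2 fold change of 0.14 at 48H (adjusted p = 0.216). FBXO22, a subunit of a ubiquitin ligase, had 0.15 (adjusted p = 0.137), and 0.22 without the third control (adjusted p = 0.0291). For FBXO22 only 1 of the 6 fits without 1 library passed, with adjusted p-values up to 0.358. RPS27L, a ribosomal protein that acts on MDM2, had 0.19 with a standard error of 0.12 (adjusted p = 0.367), its levels spreading from 45.4 to 61.2 CPM in controls and from 52.3 to 68.7 CPM at 48H. The 48H libraries overlapped the controls in all 3.

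In the metabolic, mitochondrial and secreted group, 4 of 7 members were higher at 48H, beside 5.14% of all tested genes. GDF15, a secreted stress cytokine that acts on appetite, was at 50.2, 53.2 and 51.0 CPM in controls, 45, 42.6 and 45.2 CPM at 24H and 71.9, 61.9 and 68.8 CPM at 48H. Its 24H libraries lay below all controls and its 48H libraries above them, as in GADD45A and PLK2. The share of all tested genes with this order was not counted. The 24H value did not pass (log2 -0.22, adjusted p = 0.336). GDF15 was 1.31-fold above control at 48H (log2 0.39, standard error 0.056, adjusted p = 0.000961) and 1.52-fold above 24H (log2 0.61, adjusted p = 2.15e-05).

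FDXR and SESN1 both carry a full site with 3 mismatches. FDXR, a mitochondrial reductase that passes electrons to ferredoxin for steroid and iron-sulphur cluster synthesis, was at 37.5, 39.7 and 41.1 CPM in controls, 40.6, 44.4 and 40.8 CPM at 24H and 48.1, 49.1 and 47.7 CPM at 48H. SESN1, a sestrin that restrains the growth kinase complex mTORC1 and limits oxidants, was at 21, 17.9 and 20.3 CPM in controls, 19.2, 20.1 and 20.2 CPM at 24H and 24.6, 24.1 and 23.2 CPM at 48H. In both genes the 24H libraries overlapped the controls and the 48H libraries did not. Both were 1.22-fold higher at 48H (FDXR log2 0.29, standard error 0.052, adjusted p = 0.00378, SESN1 log2 0.28, standard error 0.068, adjusted p = 0.0194). From 24H to 48H the log2 fold change was 0.21 for FDXR (adjusted p = 0.0294) and 0.27 for SESN1 (adjusted p = 0.0267). The 48H call of SESN1 was kept in 8 of the 10 alternatives that hold all libraries. It was lost, for one, with the GC content and length offsets (adjusted p = 0.0536). It was also lost without the second control (adjusted p = 0.0845) or without the second 48H library (adjusted p = 0.0701). The calls from 24H to 48H were lost in 3 of 6 fits without 1 library for FDXR and in 5 of 6 for SESN1.

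SPATA18, a mediator of mitochondrial quality control, had the largest fold change of the members at 48H and rested on the lowest counts. It was at 1.60, 1.51 and 1.62 CPM in controls, 1.99, 2.12 and 1.68 CPM at 24H and 3.02, 1.88 and 2.76 CPM at 48H. All treated libraries exceeded all controls, and the second 48H library fell within the 24H range. The rise was 1.61-fold (log2 0.69, standard error 0.20, adjusted p = 0.0424). The call was kept in 3 of the 10 alternatives that hold all libraries (DESeq2, for one, gave an adjusted p of 0.0651), and was lost in 5 of 6 fits without 1 library, with adjusted p-values from 0.0211 to 0.125.

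C12orf5, known as TIGAR, lowers glycolytic flux and favours the pentose phosphate route. It was at 22.3, 23.3 and 25.6 CPM in controls, 22.8, 23.4 and 22.2 CPM at 24H and 27.6, 25.4 and 27.4 CPM at 48H. The 48H libraries overlapped the controls but not the 24H libraries. It did not pass against CTRL (log2 0.17, adjusted p = 0.104), and its rise from 24H (log2 0.23, standard error 0.064, adjusted p = 0.0459) was lost in all 6 fits without 1 library and kept in 2 of the 10 alternatives that hold all libraries (DESeq2 gave an adjusted p of 0.0607). SESN2, the related sestrin, had a log2 fold change of 0.20 at 48H (adjusted p = 0.0957), and ACER2, an alkaline ceramidase of the Golgi, one of 0.36 with a standard error of 0.14 (adjusted p = 0.114). In both, all 48H libraries lay above all controls.

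The 19 members that did not pass at 48H had log2 fold changes from -0.15 to 0.37 and adjusted p-values from 0.0642 to 0.866. Of these, 18 lay above control, and 10 had an unadjusted p under 0.05. Over all 33 members that p was under 0.05 for 24 higher and 0 lower, beside 13.2% and 12.6% of all tested genes. The standard errors over all members at 48H ran from 0.036 for CDKN1A to 0.21 for PERP. Of the 8 members with a full site in a window, 5 were higher at 48H. So were 7 of the 20 with a window but no full site and 2 of the 5 without a window. Among all tested genes, 5.14% were higher. The groups of members are small, and a link between sites and the rise was not tested.

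By library, the median log2 ratio of the 33 members to the mean of the controls was -0.07, -0.03 and 0.08 in the 3 controls, 0.01, 0.01 and -0.03 at 24H, and 0.27, 0.25 and 0.20 at 48H. The third control had 27 of 33 members above the control mean, against 6 and 14 in the other controls, and had the second highest share of ribosomal RNA counts, 7.46%. At 48H, 32, 32 and 28 members lay above the control mean. The median coefficient of variation over members was 7.70% in CTRL, 3.74% at 24H and 4.44% at 48H.

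**Figure D3:**
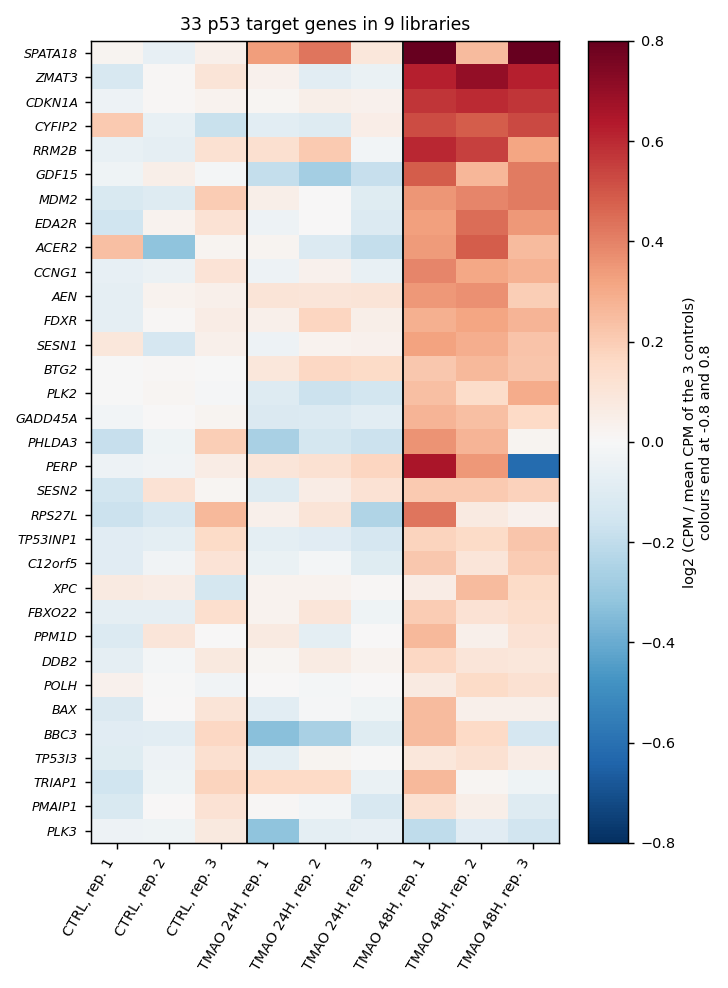
Log2 of the CPM over the mean of the 3 controls, for 33 p53 targets (rows, ordered by log2 fold change at 48H) in 9 libraries (columns), with colours ending at -0.8 and 0.8. The 48H columns are red in most rows, with medians of 0.27, 0.25 and 0.20, the third control is faintly red in most rows, and PERP is blue in the third 48H library.

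MDM4, the partner of MDM2 that silences p53, was at 41.1, 36.9 and 50.9 CPM in controls, 39.4, 38.2 and 34.9 CPM at 24H and 30.7, 34.9 and 43.4 CPM at 48H. Its groups overlapped and it did not pass (log2 -0.24 at 48H, standard error 0.12, adjusted p = 0.232).

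Of 24 genes of p53 regulation (kinases, ligases and cofactors among them), 2 rose at 48H and 0 fell, beside 5.14% of all tested genes higher and 5.29% lower, so the count is near the background. The median log2 fold change was 0.02. ATR, the kinase that signals stalled replication to p53, was at 47.8, 45.3 and 47.3 CPM in controls and 53.9, 52.8 and 55.8 CPM at 48H (log2 0.21, standard error 0.044, adjusted p = 0.00869). TOPORS, a ubiquitin and SUMO ligase of p53, was at 55.3, 53.4 and 55.4 CPM in controls and 62.3, 60.7 and 59.1 CPM at 48H (log2 0.15, standard error 0.042, adjusted p = 0.0364). In both genes the 48H libraries lay above all controls. TOPORS was also the only gene of this list to differ from 24H to 48H (log2 0.20, adjusted p = 0.0114).

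A further list of 46 p53-induced genes outside the 33 had 44 tested members. Of these, 8 rose and 2 fell at 48H, beside 5.14% of all tested genes higher and 5.29% lower. The count that fell is near the background. The median log2 fold change was 0.08. The largest rises were TLR3, a sensor of double-stranded RNA (log2 0.63, adjusted p = 0.00194), FAS, the death receptor (0.51, adjusted p = 0.0162), KITLG, the ligand of KIT (0.50, adjusted p = 0.00102), TRIM22, an antiviral ligase (0.48, adjusted p = 0.000328), and HSPA4L, a heat shock protein (0.45, adjusted p = 0.00649). In each of them all 48H libraries lay above all controls. TLR3, FAS and TRIM22 are also known as interferon-inducible genes. The 2 that fell were DDIT4, an inhibitor of mTORC1 (log2 -0.35, adjusted p = 0.00168), and TSKU, a secreted proteoglycan (log2 -0.24, adjusted p = 0.0439), both named after their values were seen. At 24H, 0 of the 44 passed, while p without adjustment was under 0.05 for 1 higher and 5 lower genes, beside the same 2.77% and 4.47% of all tested genes. From 24H to 48H, 10 rose and 2 fell, beside 3.77% of all tested genes higher (555 of 14740) and as many lower.

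The last list held 24 cell cycle genes that p53 lowers indirectly, through p21 and the repressor complex DREAM. At 48H, 0 fell and 1 rose, beside 5.29% of all tested genes lower and 5.14% higher, so the counts are near the background. The median log2 fold change was 0.03. The 1 that rose was CCNA2, cyclin A2, at 197, 194 and 203 CPM in controls and 222, 216 and 211 CPM at 48H (log2 0.13, standard error 0.039, adjusted p = 0.0483). At an unadjusted p under 0.05, 6 were higher and 1 was lower, beside 13.2% and 12.6% of all tested genes. The log2 fold changes of the list at 48H ran from -0.12 to 0.17. At 24H, 0 of the 24 passed. There p without adjustment was under 0.05 for 1 higher and 3 lower genes, beside 2.77% and 4.47% of all tested genes.

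**Figure D4:**
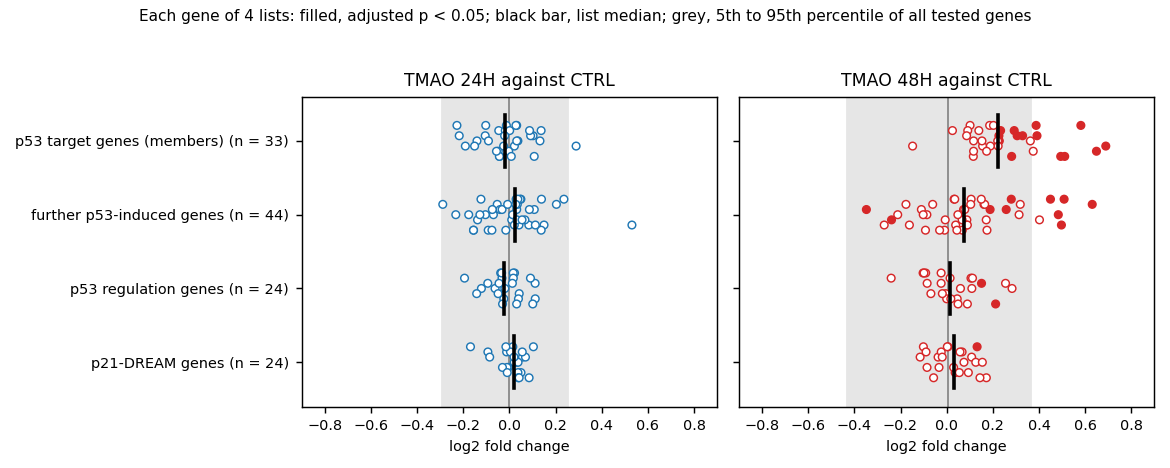
Log2 fold change against CTRL (x axis) of each gene of 4 lists at 24H (left) and 48H (right); filled points have an adjusted p under 0.05, black bars are list medians and the grey band runs from the 5th to the 95th percentile of all tested genes. At 48H the median is 0.22 for the 33 p53 targets, 0.08 for the further induced genes, 0.02 for the regulators and 0.03 for the p21 and DREAM genes.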

How the data were processed

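RNA of HMEC-1 was sequenced in 9 libraries, 3 for each group given by the labels, whose replicate numbers were kept as names. The authors processed the reads with the nf-core RNAseq pipeline, version 3.6, with Trim Galore listed in the submitters' processing notes, and deposited estimated counts per gene, not normalised. The quantifier, genome build, annotation and strand setting are not given in the sources used here. The table had 0 columns without a sample, and no 2 libraries were identical.

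The estimated counts were rounded. In R 4.3.3, the 9 libraries were fitted together in edgeR 4.0.16 after filterByExpr and TMM scaling (glmQLFit with legacy = FALSE, glmQLFTest), with Benjamini-Hochberg adjustment over 14740 genes, an adjusted p threshold of 0.05 and, for called genes, the 1.4-fold threshold of the study. CPM are counts per 1000000 of the TMM-scaled library size. The biological coefficient of variation was 0.0744. An exact permutation test of 3 against 3 cannot go below p = 0.1 and was not used. The edgeR fit, and no other step, was tested on simulated counts. The members and lists were chosen with earlier results of these data known. All members were named, those passing in at least 1 comparison (17) with every library, and of the other lists MDM4 always, and up to 5 passing genes each with the largest change. DDIT4 and TSKU were added after their values were seen. 1 gene that the rule names is not reported here.

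Alternatives were DESeq2 1.42.0, RLE factors, no filter, at least 10 counts in every library, only the groups compared, a replicate block, glmQLFit with legacy = TRUE, offsets for GC content and length (GENCODE release 29, known for 13854 genes, 94.0%, and all 33 members), removal of ribosomal RNA genes, and leaving out each library.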

Additional observations from a re-analysis of the deposited data

Results flagged for a closer look

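For 15 members the effects at 48H and at 24H differed by the direct test of 48H against 24H (edgeR's quasi-likelihood test, adjusted p under 0.05), which is why they are listed here. The log2 difference was 0.68 for ZMAT3, 0.61 for GDF15, 0.55 for CYFIP2 and 0.55 for CDKN1A. It was 0.41 for PHLDA3, 0.40 for MDM2, 0.39 for RRM2B, 0.37 for PLK2, 0.35 for CCNG1 and 0.33 for GADD45A. It was 0.29 for TP53INP1, 0.27 for SESN1, 0.23 for C12orf5, 0.21 for FDXR and 0.20 for AEN. All 15 were higher at 48H, beside 3.77% of all tested genes. In the 6 fits without 1 of the libraries compared, the call of C12orf5 was kept in 0. The calls of AEN, PHLDA3 and SESN1 were kept in 1 each.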

How the results depend on the processing

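Members higher at 48H against CTRL numbered 14, and 11 to 14 under the alternatives that keep all libraries (13 with DESeq2). Without 1 library the number ran from 12 to 15. Members called at 1.4-fold numbered 5, a count kept with RLE factors and with at least 10 counts in every library. It was 3 in the replicate block with GC content and length offsets, and 4 under each other alternative that keeps all libraries, DESeq2 among them. Without 1 library the number ran from 2 to 5, being 3 without the first control, 2 without the second control and 3 without the first 48H library. From 24H to 48H, 15 members were higher, 10 with the replicate block and 13 to 15 under the other alternatives that keep all libraries. Without 1 library the number ran from 8 to 16, being 8 without the third 24H library, 9 without the second 48H library and 10 without the first 24H library, the one rich in ribosomal RNA. The cause was not tested. The counts of members lower, and all counts at 24H, were 0 under every alternative. Same-numbered libraries did not deviate together (r from -0.12 to 0.09 over 9 pairs, against -0.10 to 0.16 over 18 pairs with different numbers), so the replicate numbers were not taken as pairs. At this depth SPATA18 and EDA2R had the lowest counts of the members, and standard errors of 0.20 and 0.14 on the log2 scale at 48H.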
